A study of Homo sapiens with 9 samples.

Results

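The 31 genes examined here encode the enzymes of cholesterol synthesis, the enzymes of fatty acid synthesis and the regulators of the sterol regulatory element binding proteins (SREBPs). They were picked by gene symbol out of a table of 19930 genes, and all 31 were present and passed the filter on low values. The sterol branch held 19 genes, of which 7 lead to farnesyl diphosphate (the mevalonate arm), 11 lead from there through squalene to cholesterol and 1 carries sterols between membranes. The fatty acid branch held 8 genes, and the other 4 were regulators. RNA sequencing had been done on cells labelled MDA-MB-453, an established human breast cancer cell line, in 3 groups of 3 libraries. X453_NC held cells given the control siRNA, and X453_1 and X453_2 held cells labelled as knockdowns of the long noncoding RNA LINC00673. The numbers 1 and 2 match those of the study's si-LINC00673-1 and si-LINC00673-2, but the labels of the libraries name no siRNA. All 3 groups went through transfection with a lipid reagent. The labels give 48 h after transfection for cells taken for qRT-PCR and no time for the sequenced cells. Libraries of a group are told apart by the suffix of their title, which is absent, r1 or r2. Setting each siRNA group against control asked which genes change when LINC00673 is targeted, and its own level is not reported here.

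SREBPs are transcription factors made as membrane proteins of the endoplasmic reticulum. When sterols run low, the escort protein SCAP takes them to the Golgi apparatus, where proteases release the active part, and INSIG proteins hold SCAP back when sterols are plentiful. SREBF2 is best known for driving cholesterol synthesis genes, and SREBF1 for driving fatty acid synthesis genes, whose products breast cancer cells use for membranes.

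The promoter windows of the 6 members on which the results below turn are shown for the motif letters they hold. MVD and TM7SF2 had the largest falls in the sterol branch, MSMO1 and INSIG1 differed between the siRNAs, ACLY had the largest rise and SREBF1 is a master regulator of the family. Each window ran from 250 bases before to 50 bases after the gene's start in RefSeq on GRCh38.p14 and is written from 5′ to 3′ on the strand of the gene. Capitals mark the letters of an SRE-like motif (TCACNCCA), of an E-box (CACGTG) or of a CCAAT box (CCAAT, which reads ATTGG on the other strand). The window of MVD lay at chr16:88663042-88663341, minus strand, that of TM7SF2 at chr11:65111622-65111921, plus strand, and that of MSMO1 at chr4:165327419-165327718, plus strand. For INSIG1 it lay at chr7:155297628-155297927, plus strand, for ACLY at chr17:41918973-41919272, minus strand, and for SREBF1 at chr17:17836937-17837236, minus strand.
MVD: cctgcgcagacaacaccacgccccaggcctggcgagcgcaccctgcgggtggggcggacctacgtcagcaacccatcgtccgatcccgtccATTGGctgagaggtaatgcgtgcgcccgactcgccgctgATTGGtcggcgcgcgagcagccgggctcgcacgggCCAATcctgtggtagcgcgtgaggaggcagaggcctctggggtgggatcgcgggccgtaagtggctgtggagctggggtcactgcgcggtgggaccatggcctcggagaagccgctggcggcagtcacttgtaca
TM7SF2: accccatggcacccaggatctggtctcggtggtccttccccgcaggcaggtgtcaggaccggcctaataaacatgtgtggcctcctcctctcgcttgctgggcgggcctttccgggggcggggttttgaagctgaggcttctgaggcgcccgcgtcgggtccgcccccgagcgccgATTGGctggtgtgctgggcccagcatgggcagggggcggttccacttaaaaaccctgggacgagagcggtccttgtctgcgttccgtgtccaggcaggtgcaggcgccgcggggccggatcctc
MSMO1: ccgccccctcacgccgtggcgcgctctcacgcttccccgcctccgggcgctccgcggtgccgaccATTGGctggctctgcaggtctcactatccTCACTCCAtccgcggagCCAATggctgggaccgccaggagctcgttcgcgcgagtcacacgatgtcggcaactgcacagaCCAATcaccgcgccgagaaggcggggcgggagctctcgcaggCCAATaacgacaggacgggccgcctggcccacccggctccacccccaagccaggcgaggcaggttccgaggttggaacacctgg
INSIG1: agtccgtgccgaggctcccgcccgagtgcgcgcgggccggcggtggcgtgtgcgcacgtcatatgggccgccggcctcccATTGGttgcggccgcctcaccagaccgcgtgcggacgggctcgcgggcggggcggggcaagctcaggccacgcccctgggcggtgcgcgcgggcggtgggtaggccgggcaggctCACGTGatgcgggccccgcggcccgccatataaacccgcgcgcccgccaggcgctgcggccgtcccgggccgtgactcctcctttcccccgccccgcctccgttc
ACLY: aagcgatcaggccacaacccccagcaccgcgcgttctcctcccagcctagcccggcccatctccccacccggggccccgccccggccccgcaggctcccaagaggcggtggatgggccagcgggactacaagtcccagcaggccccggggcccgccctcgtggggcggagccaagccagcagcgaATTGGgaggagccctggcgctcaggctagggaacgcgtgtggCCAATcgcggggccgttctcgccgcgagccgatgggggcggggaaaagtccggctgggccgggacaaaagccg
SREBF1: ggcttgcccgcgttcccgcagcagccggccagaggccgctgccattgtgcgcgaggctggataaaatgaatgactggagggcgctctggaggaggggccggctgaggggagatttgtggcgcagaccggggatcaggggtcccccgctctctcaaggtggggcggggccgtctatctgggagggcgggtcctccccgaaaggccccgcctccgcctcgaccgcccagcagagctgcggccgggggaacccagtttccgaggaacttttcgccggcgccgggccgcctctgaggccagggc

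The SRE-like letters of MSMO1 began 156 bases before its start, with CCAAT letters on both sides of them, and the E-box of INSIG1 began 55 bases before its start. MVD held CCAAT letters at 3 places, ACLY at 2 places and TM7SF2 at 1 place, and the window of SREBF1 held none of the 3 motifs. RefSeq windows were found for 27 of the 31 members, the table having no entry for FASN, ACAT2, FDFT1 and SQLE. The SRE-like letters were in 3 of these 27 windows (11.1%), those of MVK, MSMO1 and SREBF2, against 3.95% of the 35116 promoters of the same length. E-box letters were in 4 windows (14.8%, against 7.26%), those of LSS, SC5D, SCAP and INSIG1. CCAAT letters were in 18 windows (66.7%, against 34.6%), which were 13 of 16 sterol windows, 3 of 7 fatty acid windows and 2 of 4 windows of regulators, a split that was not tested. GC box letters (GGGCGG) were in 25 windows (92.6%, against 45.0%). Among the 8967 tested genes with a window the shares were 3.47% for the SRE-like letters, 10.3% for the E-box, 36.6% for the CCAAT box and 72.1% for the GC box. All motifs were searched on both strands, and a match is a description of letters, not a site of binding.

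**Figure D1:**
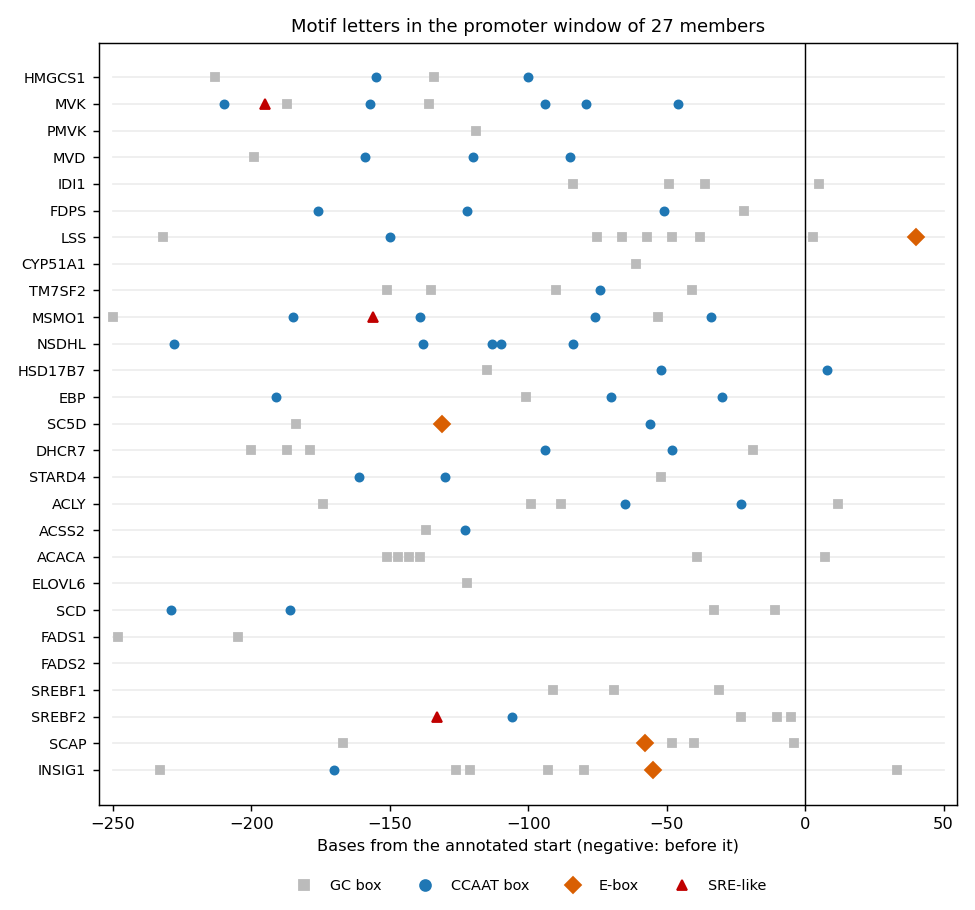
Motif letters in the promoter windows of 27 members; the horizontal axis gives bases from the annotated start and each row is 1 gene, with GC boxes as grey squares, CCAAT boxes as blue circles, E-boxes as orange diamonds and SRE-like letters as red triangles. CCAAT letters stand in 13 of the 16 sterol windows (HMGCS1 to STARD4) and in 3 of the 7 fatty acid windows (ACLY to FADS2).

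The values are FPKM (fragments scaled to the length of the transcript and to the mapped total of the library), so levels may be compared between genes. In the control libraries the members' mean levels ran from 2.21 FPKM for FADS2 to 80.3 FPKM for SCD, and FDPS (76.2 FPKM) and FDFT1 (74.0 FPKM) led the sterol branch. The steps between low FPKM values gave a depth of 23450000 to 27600000 fragments per library, an estimate at which the 231 to 257 low genes used lay on average 0.09 to 0.122 fragments from whole numbers. At that depth about 117 to 12035 fragments per library lay behind a member's value, with FADS2 the thinnest and SCD the deepest. These numbers take the longest listed transcript as the length of each gene. The length behind the FPKM is not given in the sources used here, and a shorter one would lower them. Libraries of 1 group correlated across genes at r of 0.994 to 0.996, and siRNA with control libraries at 0.955 to 0.973. Beyond these ranges single libraries were not screened for outliers. The labels do not say whether the libraries of a group came from separate cultures, so each p-value measures only the spread between these samples. The cells held the epithelial keratins KRT8 (3011.46 to 3773.05 FPKM), KRT18 and KRT19, but FOXA1 was at 0.0 to 0.04 FPKM, although the MDA-MB-453 line is known for it, so the line is named here only as the labels name it. Markers of blood (PTPRC), endothelium (PECAM1), fibroblasts (COL1A2) and basal cells (KRT5 and KRT14) were at 0.63 FPKM or lower in every library, and CD3E was not listed.

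A gene was called higher or lower where its fold change was at least 1.3 (0.38 on the log2 scale) and its Benjamini-Hochberg adjusted p in limma was at most 0.05 over the 12884 genes tested. Fold changes are differences of log2(FPKM + 1) and so understate the change of low genes. In X453_1 against X453_NC, 1 of 31 members was called higher and 4 were called lower, where 11.0% of all tested genes were called higher and 15.5% lower. In X453_2 against X453_NC, 3 members were called higher and 8 lower, beside 10.9% and 23.0% of all tested genes. In either direction 16.1% of the members were called in X453_1, below the 26.5% of all tested genes, and 35.5% in X453_2, near the 33.9% of all tested genes. Both comparisons share the control libraries, and in bulk RNA fewer cells with a transcript and less of it per cell cannot be told apart.

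**Figure D2:**
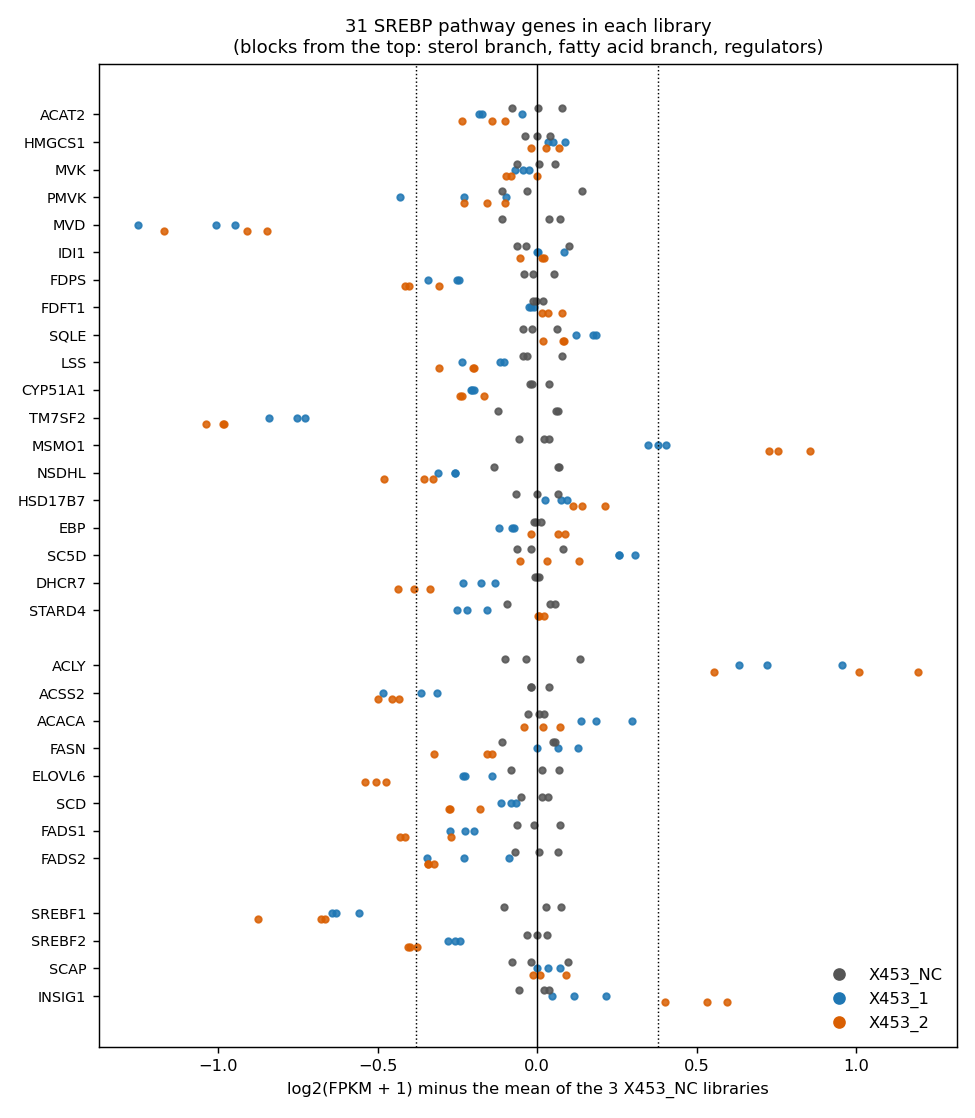
Difference of log2(FPKM + 1) from the mean of the 3 X453_NC libraries for each of 31 members; each point is 1 library, grey for X453_NC, blue for X453_1 and orange for X453_2, and dotted lines mark 0.38 in each direction. MVD, TM7SF2 and SREBF1 lie left of the lower line in all 6 siRNA libraries, and ACLY lies right of the upper line in all 6.

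In the mevalonate arm, 1 of 7 genes was called, and it fell with both siRNAs. MVD, which decarboxylates mevalonate diphosphate to give isopentenyl diphosphate (chromosome 16, 88718348 to 88729557, on the GRCh37 coordinates of the table), was at 16.97, 15.23 and 17.38 FPKM in the X453_NC libraries. It was at 8.08, 7.7 and 6.35 FPKM in X453_1 and at 6.77, 8.31 and 8.73 FPKM in X453_2. All 6 siRNA libraries thus lay below every control library, at 44.6% and 48.0% of the control mean. The log2 fold change was -1.07 (SE 0.099, adjusted p = 9.3e-06) in X453_1 and -0.98 (SE 0.099, adjusted p = 1.3e-05) in X453_2.

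The other 6 genes of the arm passed no call. FDPS, which makes farnesyl diphosphate, came closest, at 79.13, 75.49 and 74.13 FPKM in the control libraries, 63.8, 64.21 and 59.96 FPKM in X453_1 and 56.95, 57.39 and 61.33 FPKM in X453_2. These groups did not overlap with control, but the log2 fold changes, -0.28 and -0.38 (95% interval -0.47 to -0.28 in X453_2), stayed just inside the fold limit. In X453_2 FDPS was called lower without X453_2 r2, X453_NC r1 or X453_NC r2 (-0.409 at the lowest), and with 0.1 FPKM added before the logarithm (-0.38). PMVK, the kinase before MVD, had values of -0.25 (95% interval -0.45 to -0.06) and -0.16 (-0.36 to 0.03). ACAT2, which condenses acetyl-CoA at the entry of the pathway and whose span overlaps those of TCP1 and SOD2, was at -0.13 and -0.16. HMGCS1, the synthase of HMG-CoA, was nearly level, with means of 10.6 ± 0.305, 11.1 ± 0.227 and 10.8 ± 0.355 FPKM (SD, n = 3) in X453_NC, X453_1 and X453_2, and its 95% intervals ran from -0.03 to 0.14 and from -0.06 to 0.11. MVK (mevalonate kinase) and IDI1 (the isomerase after MVD) lay between -0.06 and 0.03 in both comparisons. The arm's median log2 fold change was -0.135 in X453_1 and -0.159 in X453_2.

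From squalene to cholesterol, 1 of 11 genes was called in X453_1 and 4 of 11 in X453_2, in both directions. TM7SF2, a sterol reductase acting after lanosterol (chromosome 11, 64879326 to 64883707), was at 17.55, 15.34 and 17.64 FPKM in the control libraries. It was at 8.94, 9.75 and 9.56 FPKM in X453_1 and at 8.02, 8.0 and 7.67 FPKM in X453_2, which is below every control library and 55.9% and 46.9% of the control mean. Its log2 fold change was -0.77 (SE 0.056, adjusted p = 2e-06) and -1.0 (SE 0.056, adjusted p = 2.4e-07). The span of TM7SF2 in the table, 4382 bases, lies wholly within those of VPS51 and of FAU, the latter at up to 1009.32 FPKM, and the sources used here do not say how shared reads were counted, so its level is uncertain.

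MSMO1, a methylsterol monooxygenase that acts in the removal of methyl groups from the sterol ring (chromosome 4, 166248818 to 166264316), moved the other way. Its levels were 13.76, 13.93 and 13 FPKM in X453_NC, 17.93, 18.28 and 17.53 FPKM in X453_1 and 25.33, 23.59 and 23.12 FPKM in X453_2. The 3 groups did not overlap one another. In X453_2 it rose by 0.78 on the log2 scale (SE 0.043, adjusted p = 2e-07), to 177.0% of the control mean. In X453_1 the value was 0.38 (0.377 before rounding, SE 0.043, adjusted p = 3.6e-05), just under the fold limit, and the call there was gained with 0.1 FPKM in place of 1 FPKM added before the logarithm (0.40) and without X453_1 r2, the unsuffixed X453_NC library or X453_NC r1 (0.396 at the highest).

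NSDHL and DHCR7 were called lower in X453_2 alone of the siRNA groups. NSDHL, a dehydrogenase that works with MSMO1, was at 9.15, 9.13 and 7.82 FPKM in X453_NC and at 6.57, 5.94 and 6.72 FPKM in X453_2 (-0.39, SE 0.063, adjusted p = 0.00034), and in X453_1 its value was -0.28. DHCR7, the reductase of the final step, was at 30.79, 31.05 and 30.93 FPKM in X453_NC and at 23.41, 24.3 and 22.58 FPKM in X453_2 (-0.39, SE 0.037, adjusted p = 8.7e-06), and its value in X453_1 was -0.18. Between the siRNAs neither passed the call, at -0.11 for NSDHL (adjusted p = 0.18) and -0.21 for DHCR7 (adjusted p = 0.0019). Both calls were lost when libraries were scaled by their median ratio (-0.29 and -0.28) and after the GC correction described below (-0.35 and -0.20). The call of NSDHL was also lost without X453_2 r1 (-0.34), without the unsuffixed X453_NC library (-0.35) or without X453_NC r1 (-0.35), and that of DHCR7 without X453_2 r2 (-0.36).

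The remaining genes of this arm moved by less. FDFT1, the squalene synthase, was among the steadiest, at 73.0 ± 0.402 FPKM in X453_1, 76.1 ± 1.75 FPKM in X453_2 and 74.0 ± 0.82 FPKM in X453_NC (SD, n = 3), with 95% intervals of -0.08 to 0.04 and -0.02 to 0.10. SQLE, the squalene epoxidase, was at 0.16 and 0.06, LSS (lanosterol synthase) at -0.15 and -0.23, and CYP51A1 (lanosterol demethylase) at -0.20 and -0.22. Of these only LSS and CYP51A1 lay below every control library with both siRNAs. SC5D, a sterol desaturase, lay above every control library in X453_1 (0.27, adjusted p = 0.002) and overlapped control in X453_2 (0.04). HSD17B7, a ketoreductase, was at 0.06 and 0.15. EBP, a sterol isomerase whose span lies inside that of PORCN and whose reads may be shared with it, was at -0.09 and 0.04. STARD4, the sterol carrier, was at -0.21 in X453_1 (95% interval -0.32 to -0.10) and 0.01 in X453_2 (-0.10 to 0.12).

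**Figure D3:**
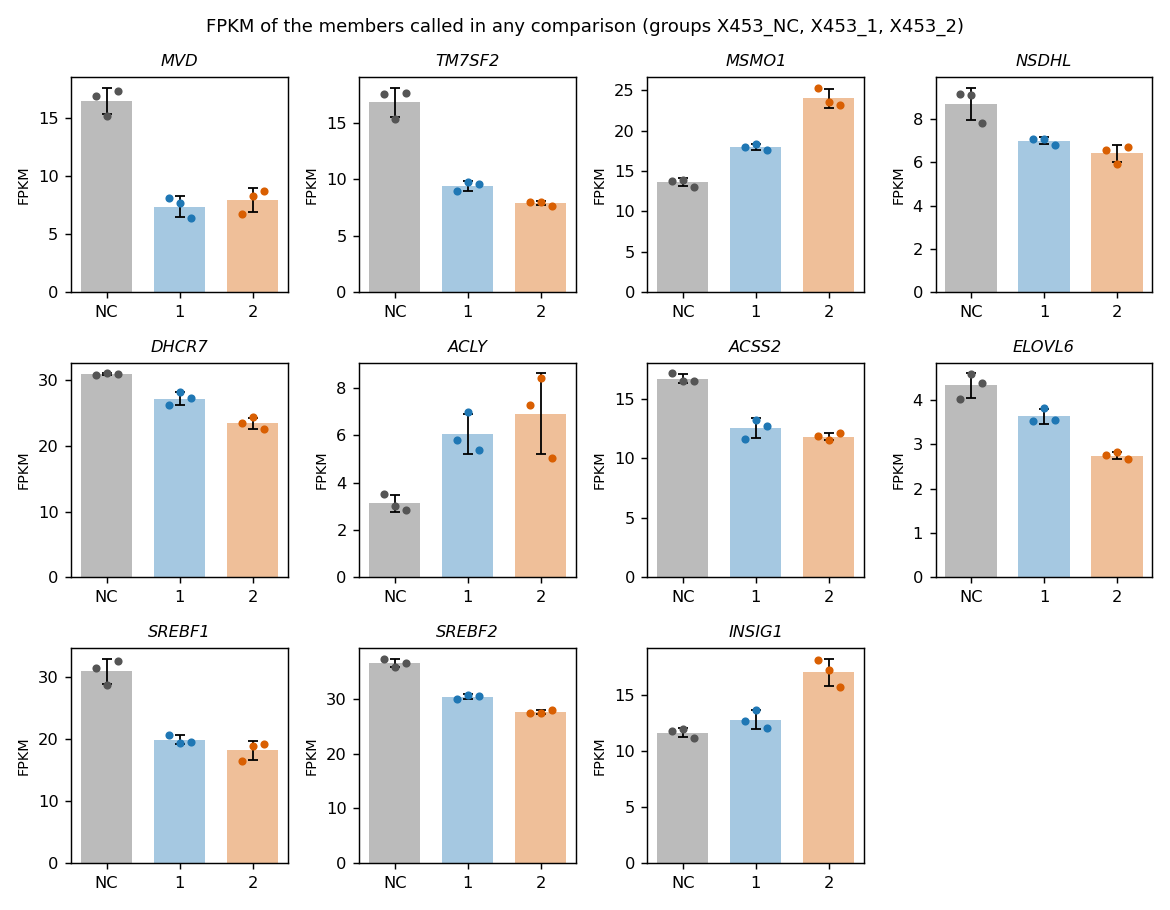
FPKM of the 11 members called in any comparison; bars give the mean of 3 libraries, error bars the SD and points the single libraries of X453_NC (NC), X453_1 (1) and X453_2 (2), on axes that start at 0. MVD, TM7SF2, ACSS2 and SREBF1 stand lower in both siRNA groups, ACLY stands higher in both, and MSMO1 and INSIG1 stand highest in X453_2.

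In the fatty acid branch, the enzymes that supply acetyl-CoA moved in opposite directions. ACLY, the lyase that makes acetyl-CoA from citrate (chromosome 17, 40023170 to 40075275), was at 3.52, 3.02 and 2.84 FPKM in X453_NC, 5.79, 6.99 and 5.39 FPKM in X453_1 and 7.28, 8.43 and 5.05 FPKM in X453_2. Every siRNA library lay above every control library, at 194.0% and 221.0% of the control mean. The log2 fold change was 0.77 (SE 0.15, adjusted p = 0.0012) and 0.92 (SE 0.15, adjusted p = 0.00031). Its X453_2 libraries were spread widely, at 6.92 ± 1.72 FPKM (SD, n = 3), and leaving out single libraries moved its value in X453_2 between 0.78 and 1.10.

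ACSS2, which makes acetyl-CoA from acetate, was at 17.16, 16.45 and 16.48 FPKM in X453_NC, 11.65, 13.22 and 12.75 FPKM in X453_1 and 11.89, 11.51 and 12.09 FPKM in X453_2. No siRNA library reached the control range. It fell by 0.39 (SE 0.047, adjusted p = 5.5e-05) in X453_1 and by 0.46 (SE 0.047, adjusted p = 1.2e-05) in X453_2 on the log2 scale. The call in X453_1 was lost without the unsuffixed X453_1 library (-0.34) or without the unsuffixed X453_NC library (-0.37), that in X453_2 with median ratio scaling (-0.36), and both after GC correction (-0.34 and -0.36).

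ELOVL6, an elongase of long saturated chains, was called in X453_2. It was at 4.03, 4.58 and 4.38 FPKM in X453_NC, 3.53, 3.83 and 3.55 FPKM in X453_1 and 2.75, 2.83 and 2.66 FPKM in X453_2. The groups ranked in that order with no overlap, with a log2 fold change of -0.51 (SE 0.054, adjusted p = 1.8e-05) in X453_2 and -0.20 (adjusted p = 0.0086) in X453_1. Between the siRNAs the value was -0.31 (95% interval -0.43 to -0.19), under the fold limit.

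The core synthases and the desaturases passed no call. FASN, the fatty acid synthase itself, was at 34.54, 30.81 and 34.68 FPKM in X453_NC, 34.85, 36.5 and 33.29 FPKM in X453_1 and 26.37, 30.05 and 29.75 FPKM in X453_2. Only the X453_2 libraries lay wholly below control, and the values were 0.06 (95% interval -0.07 to 0.20) and -0.21 (-0.35 to -0.07). ACACA, the acetyl-CoA carboxylase, was at 0.21 and 0.02. SCD, the desaturase that makes oleate and the most abundant member, was at 77.54, 82.21 and 81.23 FPKM in X453_NC and at 70.87, 66.34 and 66.15 FPKM in X453_2 (-0.24, adjusted p = 0.00018), and at -0.09 in X453_1. FADS1 and FADS2, desaturases of polyunsaturated chains, were at -0.23 and -0.22 in X453_1 and at -0.37 and -0.34 in X453_2, both below every control library in each comparison. Their spans overlap by 855 bases on opposite strands, and strand use in the counting is not given in the sources used here. FADS1 was called lower in X453_2 with 0.1 FPKM added (-0.40) and without the unsuffixed X453_2 library (-0.42) or X453_NC r2 (-0.40), and FADS2 with 0.1 FPKM added (-0.49).

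Among the regulators, SREBF1, which encodes the SREBPs of fatty acid synthesis (chromosome 17, 17714663 to 17740325), fell with both siRNAs. It was at 31.59, 28.74 and 32.7 FPKM in X453_NC, 20.71, 19.44 and 19.63 FPKM in X453_1 and 16.43, 18.96 and 19.16 FPKM in X453_2. These are 64.3% and 58.6% of the control mean with no overlap, and the log2 fold changes were -0.61 (SE 0.064, adjusted p = 2.1e-05) and -0.74 (SE 0.064, adjusted p = 4.1e-06). After GC correction they were -0.30, where the call was lost, and -0.38. The files give 1 value per gene, so its isoforms could not be told apart.

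SREBF2, the SREBP of cholesterol synthesis, was at 37.51, 35.9 and 36.68 FPKM in X453_NC, 30.04, 30.9 and 30.55 FPKM in X453_1 and 27.45, 27.6 and 28.03 FPKM in X453_2. The 3 groups did not overlap, and the spread within each was small. Its log2 fold change was -0.26 (SE 0.029, adjusted p = 3.7e-05) in X453_1, under the fold limit, and -0.39 (SE 0.029, adjusted p = 1.6e-06) in X453_2, a call lost with median ratio scaling (-0.28), after GC correction (-0.24) and without the unsuffixed X453_NC library (-0.378). SCAP, the escort protein, was nearly level, at 16.1 ± 1.06, 16.5 ± 0.446 and 16.5 ± 0.66 FPKM (SD, n = 3) in X453_NC, X453_1 and X453_2, with 95% intervals of -0.08 to 0.15 and -0.08 to 0.14. After the GC correction described below its values were 0.32 and 0.37 (adjusted p = 3.5e-05 and 9.4e-06), under the fold limit.

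INSIG1, which retains SCAP in the endoplasmic reticulum and is itself a known SREBP target (chromosome 7, 155089482 to 155101945), rose in X453_2. It was at 11.82, 11.97 and 11.16 FPKM in X453_NC, 12.7, 13.7 and 12.05 FPKM in X453_1 and 18.13, 17.29 and 15.7 FPKM in X453_2. The X453_2 libraries lay above all the others. The log2 fold change was 0.51 (SE 0.06, adjusted p = 3.4e-05) in X453_2 and 0.13 (SE 0.06, adjusted p = 0.09) in X453_1.

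In X453_2 against X453_1, 2 of 31 members were called higher and 0 lower, where 2.06% of all tested genes were called higher and 5.32% lower. They were MSMO1, at 0.40 (95% interval 0.31 to 0.50, adjusted p = 0.00012), and INSIG1, at 0.38 (95% interval 0.25 to 0.52, adjusted p = 0.00088). At an unadjusted p of at most 0.05 with the same fold limit the count lower was likewise 0. That count was fixed by the fold limit at any p, since the lowest member value was -0.31. With an adjusted p of at most 0.05 and no fold limit, 4 members were higher and 8 lower, the latter including ELOVL6, FASN (-0.27), SC5D (-0.24) and TM7SF2 (-0.23). For MVD the siRNAs did not differ beyond the spread (0.09, 95% interval -0.13 to 0.31), nor for ACLY (0.15, -0.18 to 0.48) or SREBF1 (-0.13, -0.27 to 0.02), intervals that still allow differences of the size of the fold limit only for ACLY. The call of MSMO1 was lost without the unsuffixed X453_2 library (0.365), and that of INSIG1 without the same library (0.34), X453_2 r1 (0.37) or X453_1 r2 (0.34).

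Set side by side, the sterol branch had 0 members called higher and 2 lower of 19 in X453_1, and the fatty acid branch 1 higher and 1 lower of 8. In X453_2 the counts were 1 higher and 4 lower of 19 for the sterol branch and 1 higher and 2 lower of 8 for the fatty acid branch. The median log2 fold change in X453_1 was -0.135 for the sterol branch and -0.143 for the fatty acid branch, where the median over all tested genes was 0.003. In X453_2 it was -0.060 and -0.289, where the median over all tested genes was -0.095, so the sterol branch lay a little above the table's middle and the fatty acid branch below it. Within the sterol branch the X453_2 median was -0.159 in the mevalonate arm and 0.037 from squalene to cholesterol, where values ran from -1.0 to 0.78. With median ratio scaling these 2 medians were -0.052 and 0.132, and after the GC correction described below 0.053 and 0.09. In X453_1 the medians of the 2 arms were -0.135 and -0.09. No test was run between the branches, since the genes were listed by function with earlier results known.

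As differences from the control mean, the median over the sterol branch was -0.099, -0.116 and -0.177 in the X453_1 libraries and -0.081, -0.099 and -0.054 in the X453_2 libraries. For the fatty acid branch it was -0.157, -0.101 and -0.146 in X453_1 and -0.296, -0.306 and -0.308 in X453_2. The values of the fatty acid branch in X453_2 were close together, and those of the sterol branch were spread more widely for their size. In X453_2 against X453_1 the median was -0.147 for the fatty acid branch, with 7 of 8 genes negative and ACLY the exception, and -0.024 for the sterol branch, but the median over all tested genes was itself -0.081. With median ratio scaling these became -0.038 (6 of 8 genes negative), 0.089 and 0.02. Scaling by median ratio, which moves the middle of all genes in X453_2 from -0.095 to 0.001, left the fatty acid branch at -0.197 and turned the sterol branch to 0.038, and the calls over all genes in X453_2 went from 1406 higher and 2966 lower to 2009 and 2215. In X453_2 against X453_1 they went from 266 higher and 685 lower to 535 and 274, while the members called stayed MSMO1 and INSIG1.

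By separation of libraries alone, 6 of 31 members had every X453_1 library above every control library and 16 had every one below, where 35.0% and 35.1% of all tested genes did so. In X453_2, 4 members lay wholly above and 16 wholly below, against 26.9% and 46.1% of all tested genes. With the adjusted p and no fold limit, 5 members were higher and 16 lower in X453_1 (32.1% and 32.3% of all genes) and 4 higher and 16 lower in X453_2 (26.0% and 44.8%). An exact permutation test of a single gene, 3 libraries against 3, cannot give a two-sided p below 0.1.

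GC content of the transcript moved with the change in level, over all genes and among the members. Of the 12884 tested genes 86.9% had a transcript with a known GC content, and so had all 31 members. Among the most GC-rich of them, at 58.6% or more, the median log2 fold change was -0.29 in X453_1 and -0.34 in X453_2, against 0.044 and -0.064 in the rest. The members that fell furthest were among the most GC-rich, TM7SF2 at 64.2%, MVD at 63.7% and SREBF1 at 62.8%, and MSMO1 was among the poorest at 38.1%. Other members departed from this order. In X453_1 and X453_2, FASN (65.3%) was at 0.06 and -0.21 and SCAP (62.3%) at 0.035 and 0.03. STARD4, the poorest at 34.2%, was at -0.21 and 0.01, and ELOVL6 (41.2%) was at -0.20 and -0.51. Across the 31 members r between GC content and log2 fold change was -0.48 in X453_1 and -0.51 in X453_2, as a description of genes that share their libraries.

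When each library was centred along GC content, a step chosen after seeing the data, MVD was still called lower (-0.71 and -0.58) and so was TM7SF2 (-0.38 and -0.59). The changes of both were smaller than without centring, by over 1.5 times. SREBF1, as given above, kept its call only in X453_2. ACLY (0.75 and 0.98), MSMO1 (0.84 in X453_2), INSIG1 (0.54 in X453_2) and ELOVL6 (-0.45 in X453_2) also kept their calls. FASN, the member with the highest GC content (65.3%), was at 0.53 in X453_1 after centring, then called higher, and at 0.25 in X453_2, where its sign turned and the fold limit was not reached. MSMO1 and INSIG1 still differed between the siRNAs, by 0.55 and 0.49. Whether base composition itself set any of these values was not tested. With centring the median over all genes fitted was -4.6e-05 in X453_2, where it was -0.095 without it. Median ratio scaling moved it to 0.001, so these 2 alternatives overlap and are not separate checks.

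**Figure D4:**
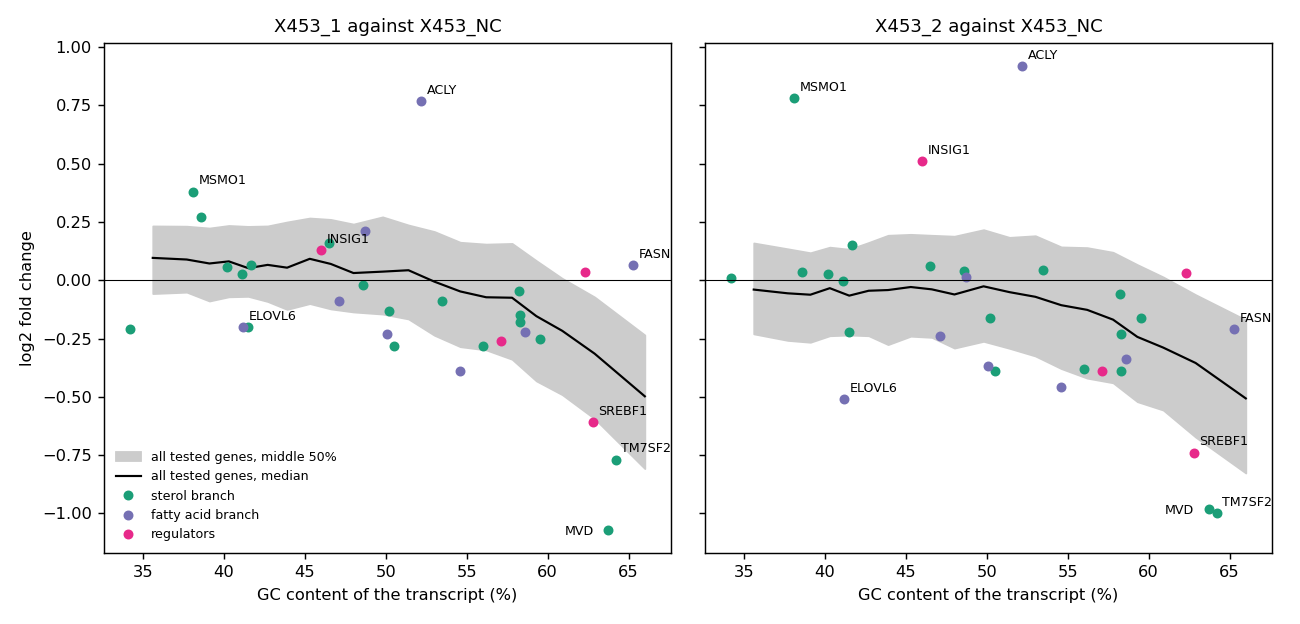
Log2 fold change against control, on the vertical axis, by GC content of the transcript in percent, for X453_1 (left) and X453_2 (right); the black line is the median and the grey band the middle 50% of all tested genes in 20 bins, and points are the members by branch. MVD and TM7SF2 lie below the band and ACLY above it in both panels.

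Other genes of these pathways were taken from 5 lists of 51 genes, of which 50 were tested, ABCA1 being too low (0.13 to 0.26 FPKM). The shares of all tested genes called, given above, hold for these lists too: 11.0% higher and 15.5% lower in X453_1, and 10.9% and 23.0% in X453_2. Of 10 genes of SREBP processing and degradation, 1 was called higher in X453_1, and 1 higher and 2 lower in X453_2. INSIG2, the second INSIG protein, was at 15.64, 16.73 and 16.92 FPKM in X453_NC and 26.27, 26.21 and 24.5 FPKM in X453_2 (0.61, adjusted p = 7.6e-07), and at 0.25 in X453_1. MBTPS1, the protease that makes the first cut in SREBPs, was at 20.55, 21.57 and 21.89 FPKM in X453_NC and 14.26, 14.06 and 14.26 FPKM in X453_2 (-0.56, adjusted p = 4.1e-07), and at -0.27 in X453_1. Both INSIG genes thus rose in X453_2, the one a member and the other from the list.

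Of 11 other isoprenoid and sterol genes, 1 was lower in X453_1, and 1 was higher and 2 were lower in X453_2. TMEM97, a membrane protein of sterol handling, fell from 7.69, 7.08 and 7.13 FPKM to 3.23, 3.77 and 4.14 FPKM in X453_1 and 3.2, 2.97 and 2.47 FPKM in X453_2, a log2 fold change of -0.82 (adjusted p = 2.2e-05) and -1.1 (adjusted p = 2.1e-06). SCARB1, a receptor for high-density lipoprotein, was at 0.37 in X453_1, where it was called after GC correction (0.42), and at 0.42 in X453_2 (adjusted p = 9e-06). Of 6 tested genes of the liver X receptors (LXRs) and their targets, 0 were higher in either comparison, 2 were lower in X453_1 and 3 in X453_2. All of these calls fell on receptor genes, NR1H2 and NR1H3 in both comparisons and RXRA in X453_2. The tested targets passed no call in X453_1 or X453_2: ABCG1 (0.04 and -0.03), MYLIP (0.065 and 0.32) and LPCAT3 (-0.31 and -0.29). With median ratio scaling 1 of the 6, MYLIP, was higher in X453_2 (0.41) and 2 were lower, and after GC correction 1 was lower in X453_1 and 2 in X453_2. NR1H2, which encodes an LXR, a sterol sensor that induces SREBF1, was at 16.7, 14.48 and 16.35 FPKM in X453_NC, 11.9, 10.82 and 10.29 FPKM in X453_1 and 7.31, 9.75 and 8.42 FPKM in X453_2 (-0.49 and -0.83, adjusted p = 0.001 and 2.2e-05). After GC correction NR1H2 was at -0.26, where the call was lost, and at -0.55.

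Of 15 other genes of fatty acid and glycerolipid synthesis, 2 were higher and 3 lower in X453_1, and 2 higher and 2 lower in X453_2. ACSL5, which activates long-chain fatty acids, rose from 5.71, 5.77 and 5.96 FPKM to 9.79, 10.2 and 10.14 FPKM in X453_1 and 12.12, 12.05 and 12.14 FPKM in X453_2 (0.70 and 0.94, adjusted p = 2.3e-07 and 1.8e-08). MID1IP1, an activator of acetyl-CoA carboxylase, fell by 0.52 and 0.74 on the log2 scale (adjusted p = 3.5e-05 and 2.2e-06). Of 8 genes of fatty acid oxidation, 1 was higher and 1 lower in X453_1, and 1 higher and 2 lower in X453_2. CPT1A, the gatekeeper of mitochondrial import, was at 0.45 and 0.40 (adjusted p = 5.8e-06 and 9.8e-06), and ECI1, an isomerase of unsaturated chains, at -0.75 and -0.56 (adjusted p = 0.00036 and 0.002). After GC correction ECI1 was at -0.50 in X453_1 and at -0.26 in X453_2, where the call was lost, and 0 genes of this list were then lower in X453_2. CPT1A lost its call in X453_2 without the unsuffixed X453_2 library (0.36). Of the fatty acid and glycerolipid genes, 1 was lower in each comparison after GC correction. The list medians ran from -0.323 (LXR) to 0.149 (fatty acid and glycerolipid synthesis) in X453_1 and from -0.35 (LXR) to -0.015 (SREBP processing) in X453_2.

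**Figure D5:**
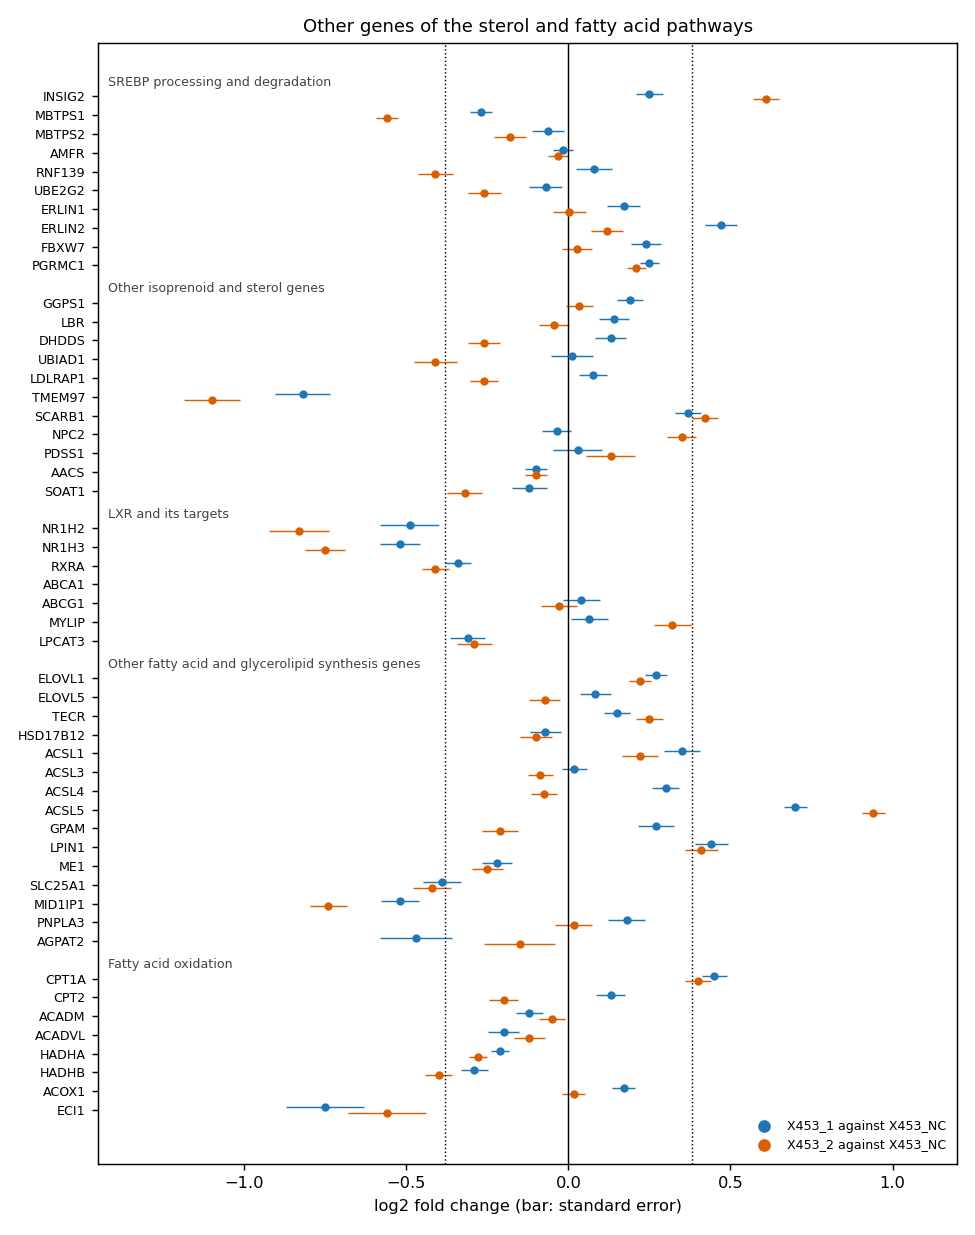
Log2 fold change against X453_NC of 50 other genes in 5 lists, blue for X453_1 and orange for X453_2, with the standard error as a bar and dotted lines at 0.38 in each direction. TMEM97 and ACSL5 lie farthest from 0, at -1.1 and 0.94 in X453_2.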

How the data were processed

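RNA from 9 libraries, 3 per group, was sequenced on the BGISEQ-500 platform. The authors deposited 1 table of FPKM per gene and library, and the submitters' processing notes name Bowtie2 and GRCh37.p13. The counting tool is not given in the sources used here. The table gives each library's FPKM in 2 equal columns, and 9 columns of per-sample values were not used. Its log2 ratios, p-values and q-values between groups hold the authors' own comparisons and were not used, nor were 4 lines without values.

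Groups came from the titles of the libraries. Genes averaging 1 FPKM or more over all libraries were fitted on log2(FPKM + 1) with limma 3.58.1 in R 4.3.3 (eBayes with a trend, all 9 libraries, group as the only factor), with Benjamini-Hochberg adjustment over all genes tested, and standard errors and 95% intervals came from this fit. The fit was run on simulated data in which 200 genes changed, in X453_1 alone, with no trend along GC content. Of the 197 changed genes that were fitted 99% were called, and 6 unchanged genes were called. In the data 26.5% of genes were called in X453_1 and 33.9% in X453_2, so the simulation checks the steps of the fit and not these calls. Tables and figures were made in Python 3.11.15 with pandas 2.3.3 and matplotlib 3.10.9. The members and lists were chosen with earlier results of these data known. Every member is named, and from each other list the called gene with the largest rise and that with the largest fall by the mean of both comparisons with control. Libraries with the same suffix (none, r1 or r2) did not deviate together (r of -0.239 to 0.104 over 9 pairs), so the suffix was not taken to pair them. Between libraries with different suffixes r ran from -0.208 to 0.272 over 18 pairs, 7 of them above 0.1. The unsuffixed X453_2 library was at 0.272 with X453_1 r2 and at 0.231 with X453_NC r1, and X453_1 r2 was at 0.13 with X453_NC r1. Likewise X453_2 r1 was at 0.227 with the unsuffixed X453_1 library and at 0.115 with the unsuffixed X453_NC library, which were at 0.104 with each other. Whether libraries share a batch across groups was not tested, and no block other than the suffix was fitted. The alternatives were another added value, other filters, no fold limit, an unadjusted p, median ratio scaling, fits of only the groups compared, no trend, a replicate block, each library left out and, chosen after seeing the data, GC correction, in which log2 values were centred in each library within 20 bins of the GC content of the gene's longest GENCODE transcript.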

Additional observations from a re-analysis of the deposited data

Results flagged for a closer look

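MSMO1 and INSIG1 stood out because their change against control differed between the siRNAs. The log2 fold change with X453_2 minus that with X453_1 was 0.40 for MSMO1 (adjusted p = 0.00012, limma) and 0.38 for INSIG1 (adjusted p = 0.00088, limma), and in both genes all 3 X453_2 libraries lay above all 3 X453_1 libraries. With 3 libraries in each group, single libraries were not screened for outliers.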

How the results depend on the processing

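No value called in a comparison changed sign there under an alternative. Values of members not called did: with GC correction, 4 in X453_1, 4 in X453_2 (FASN to 0.25, and MVK, PMVK and IDI1) and 6 in X453_2 against X453_1, and with median ratio scaling, 2 in X453_2 and 10 in X453_2 against X453_1, besides values near 0 when single libraries were left out. Of 1761 values of members under the alternatives, 1691 stayed on their side of the call, 21 lost it and 49 gained it, most of the latter without the fold limit. The suffix as a replicate block changed no call of a member, with 1426 higher and 1991 lower of all genes in X453_1 and 1409 and 2970 in X453_2. Without the fold limit, the sterol branch had 3 members higher and 10 lower in X453_1, 2 and 8 in X453_2, and 3 and 3 in X453_2 against X453_1, and the fatty acid branch had 2 higher and 4 lower in X453_1, 6 lower in X453_2, and 4 lower in X453_2 against X453_1. With 0.1 FPKM added, 1 sterol gene was higher in X453_1, 5 sterol genes and 4 fatty acid genes were lower in X453_2 (fatty acid median -0.321) and 1 fatty acid gene was lower in X453_2 against X453_1. With a mean of at least 5 FPKM, which drops members, the fatty acid median was -0.011 in X453_1 and -0.225 in X453_2, with 1 gene lower in the latter. With median ratio scaling, 2 sterol genes and 1 fatty acid gene were lower in X453_2, the medians were 0.038 (sterol) and -0.197 (fatty acid), and in X453_2 against X453_1 they were 0.089 and -0.038. With GC correction, the sterol median was -0.063 in X453_1, 0.053 in X453_2 and 0.097 between them, the fatty acid median -0.118, -0.170 and -0.061, the fatty acid branch had 2 genes higher and 0 lower in X453_1 and 1 lower in X453_2, and 2 sterol genes were lower in X453_2. The cause of these shifts was not tested. Over all genes, the calls without the fold limit were 4133 higher and 4163 lower in X453_1, 3349 and 5772 in X453_2, and 1313 and 4362 in X453_2 against X453_1. In the last comparison they were 1246 lower with 0.1 FPKM added, 346 lower with a mean of at least 5 FPKM, and 327 higher and 243 lower with GC correction (1675 and 1657 in X453_2 against control, 1220 and 1291 in X453_1).

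Leaving out each library in turn, the sterol branch had 0 to 1 genes higher in X453_1, a median of -0.170 to -0.096 in X453_1 and -0.092 to -0.037 in X453_2, 3 to 5 genes lower in X453_2, and 0 to 1 genes higher in X453_2 against X453_1. The fatty acid branch had 0 to 1 genes lower in X453_1 and 2 to 3 in X453_2, and its median ran from -0.175 to -0.118 in X453_1, from -0.319 to -0.268 in X453_2 and from -0.188 to -0.125 between them. Depth is only an estimate here, and the low level of FADS2 limits its precision (SE 0.073, and 0.11 with 0.1 FPKM added). The largest SE of the members was that of ACLY (0.15), and that of ELOVL6 was 0.054.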
